A study of Homo sapiens with 10 samples.

Results

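The chaperones of A375, a human melanoma cell line, were measured as messenger RNA in cells given small interfering RNA (siRNA) to PHF10 or to MYC. The genes were 43 listed folding factors, 20 of the endoplasmic reticulum (ER) and 23 of the heat shock system of the cytosol and mitochondria. They were found by gene symbol among the 60623 gene identifiers of the count files. All 43 matched 1 identifier each under the current symbol, and all 43 were among the 18450 genes with enough reads to test. The lowest member count in any library was 163 reads, for ERN1.

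Proteins of the secretory pathway fold in the ER, where the HSP70 protein BiP, the HSP90 protein GRP94, disulfide isomerases and the lectins calreticulin and calnexin bind them. When unfolded proteins accumulate there, the sensors IRE1, ATF6 and PERK start the unfolded protein response, which raises the genes of these chaperones and of the machinery that sends misfolded proteins to the proteasome. In the cytosol, HSP70 and HSP90 proteins with their co-chaperones and the ring-shaped chaperonin CCT do the same work. Their stress-induced members are activated by heat shock factor, HSF1. Melanoma cells that make pigment load the secretory pathway with melanosome glycoproteins.

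The data were 10 poly(A) RNA-seq libraries of 2 experiments, and cells were collected 72 h after transfection. In experiment 1 there were 4 libraries with siRNA against PHF10, a subunit of the PBAF chromatin remodelling complex, and 2 controls. Experiment 2 held 2 libraries labelled as knockdown of the transcription factor MYC and 2 controls of its own. The transfection protocol of the labels names a control siRNA, whereas their siRNA field states that the controls were untreated. The labels name no genotype beyond the cell line. They do not say whether replicates were grown separately, so the p-values reflect how far these libraries differ, possibly for technical reasons alone.

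Short promoter sequences show which members carry the control elements known for these pathways. The 250 bases before a RefSeq transcription start were searched on both strands in the promoters of 27305 genes (GRCh38.p14). These held 19 of the 20 ER members and 21 of the 23 heat shock members. Only the first listed start of each gene was searched. Several members have further starts, among them PDIA4, PDIA6, HSP90AA1, HSP90AB1 and DNAJB1. The ER stress response element, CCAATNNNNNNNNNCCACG, is bound by NF-Y and by ATF6 or XBP1. It stood in 22 of the 27305 promoters (0.0806%) and in 6 of the 19 ER members, which were HSPA5, HSP90B1, CALR, CANX, XBP1 and CRELD2. The second form of the element, ATTGGNCCACG, stood in 14 promoters (0.0513%), among them HYOU1, SDF2L1 and HERPUD1. Neither form was found in the 21 heat shock promoters. No element was found in the searched windows of MANF, PDIA4 or PDIA6. The following stretches show both forms of the element in their surroundings, and capitals mark the element. Of these genes SDF2L1 passed after PHF10 knockdown, HSPA5, CALR and CRELD2 passed between the controls, and HYOU1 passed in no comparison.
HSPA5 (chr9:125241371-125241429, minus strand): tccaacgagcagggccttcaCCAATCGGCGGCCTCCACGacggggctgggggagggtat
CALR (chr19:12938364-12938422, plus strand): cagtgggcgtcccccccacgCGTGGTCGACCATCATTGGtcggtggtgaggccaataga
CRELD2 (chr22:49918534-49918592, plus strand): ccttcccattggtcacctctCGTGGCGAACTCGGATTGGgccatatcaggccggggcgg
SDF2L1 (chr22:21642094-21642144, plus strand): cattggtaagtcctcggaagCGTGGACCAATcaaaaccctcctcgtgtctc
HYOU1 (chr11:119057254-119057304, minus strand): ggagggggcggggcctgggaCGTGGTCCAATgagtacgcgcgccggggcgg

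In HSPA5 the element began 66 bases before the start. In CALR, CRELD2, SDF2L1 and HYOU1 it lay on the opposite strand, so the letters printed are its reverse complement, and HYOU1 held it at 2 places. The heat shock element with 3 units, GAANNTTCNNGAA, was counted only where every fixed letter matched, and stood in 120 promoters (0.439%). Of the heat shock members only HSPA8, the constitutive cytosolic HSP70, held it, with GAAAGTTCCAGAA 230 bases and TTCTGGAAGGTTC 55 bases before the start. The windows of HSPD1 and HSPE1, which are transcribed away from each other, shared 104 bases. A match describes letters in this window and is not evidence of binding. An absent match says nothing about inexact forms of an element, other starts of the gene or a factor elsewhere. The windows of HSPA1A and HSPA1B, for example, both hold gaatattcccgac, which departs from the heat shock pattern only in its last letter.

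Reads assigned to genes numbered 20.47 to 38.37 M per library. PHF10 measured 16.1, 17.96, 15.0 and 15.7 CPM (reads scaled to the depth of each library, with TMM factors) in its knockdown replicates 1 to 4. The controls of experiment 1 had 40.1 and 36.6 CPM, so the log2 fold change was −1.24 (SE 0.10, edgeR adjusted p = 0.00105). In experiment 2 PHF10 stood higher, at 124 and 119 CPM with labelled MYC knockdown and at 124 and 125 CPM in the controls. MYC stood at 16.7 and 13.3 CPM where its knockdown is labelled and at 14.96 and 26.5 CPM in the matching controls, and the log2 ratio was −0.46 (SE 0.39; adjusted p = 0.688). MYC mRNA overlapped between the groups of experiment 2, so each direction below is that of the libraries labelled MYC knockdown. The common coefficient of variation between replicates was 26.7% in experiment 1 and 3.39% in experiment 2 when each was fitted alone. The mean log2 CPM of 43 type I interferon genes was 7.75, 7.45, 3.79 and 5.02 with PHF10 siRNA (replicates 1 to 4), 8.08 and 4.87 in the matching controls, and 3.36 to 3.56 in experiment 2. Of the melanocyte lineage markers, SOX10 stood between 528 and 948 CPM in all 10 libraries, while the pigment genes MLANA and TYR were at or under 0.057 CPM. In bulk RNA a change in the number of cells of a kind and a change of RNA per cell cannot be told apart.

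Per kilobase of exon, the most abundant members in the controls of experiment 1 were CALR at 806 CPM per kb, HSP90AB1 at 628, HSPA8 at 419, HSP90B1 at 342, HSPA5 at 308 and HSP90AA1 at 268. CALR encodes the lectin calreticulin, HSP90B1 encodes GRP94 and HSPA5 encodes BiP. At the low end stood the sensor ERN1 (IRE1) at 0.73 CPM per kb and CRELD2 at 8.19. The inducible cytosolic HSP70 genes HSPA1A and HSPA1B stood at 11.7 and 10.8 CPM per kb, far under HSPA8. The ER members summed to 6555, 8768, 7004 and 6927 CPM in the PHF10 knockdown libraries and 9371 and 9081 CPM in their controls. In experiment 2 they summed to 4971 and 5087 CPM with labelled MYC knockdown and to 5562 and 5712 CPM in the controls. The summed ER level thus did not overlap between knockdown and controls in either experiment. Abundant genes such as CALR and HSP90B1 weigh most in this sum. The mean log2 CPM of the 20 ER members reached 7.398 in PHF10 knockdown replicate 2, close to 7.404 in control replicate 1. Single genes, which are no background for a sum, did not overlap in 27.2% of all genes in experiment 1 and in 69.7% in experiment 2. In each experiment 6 of the 20 ER members had a positive fold change. From the lowest to the highest of the 10 libraries, ER members varied by a median of 2.22-fold (1.24 to 2.76) and heat shock members by a median of 1.64-fold (1.25 to 2.04).

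**Figure D1:**
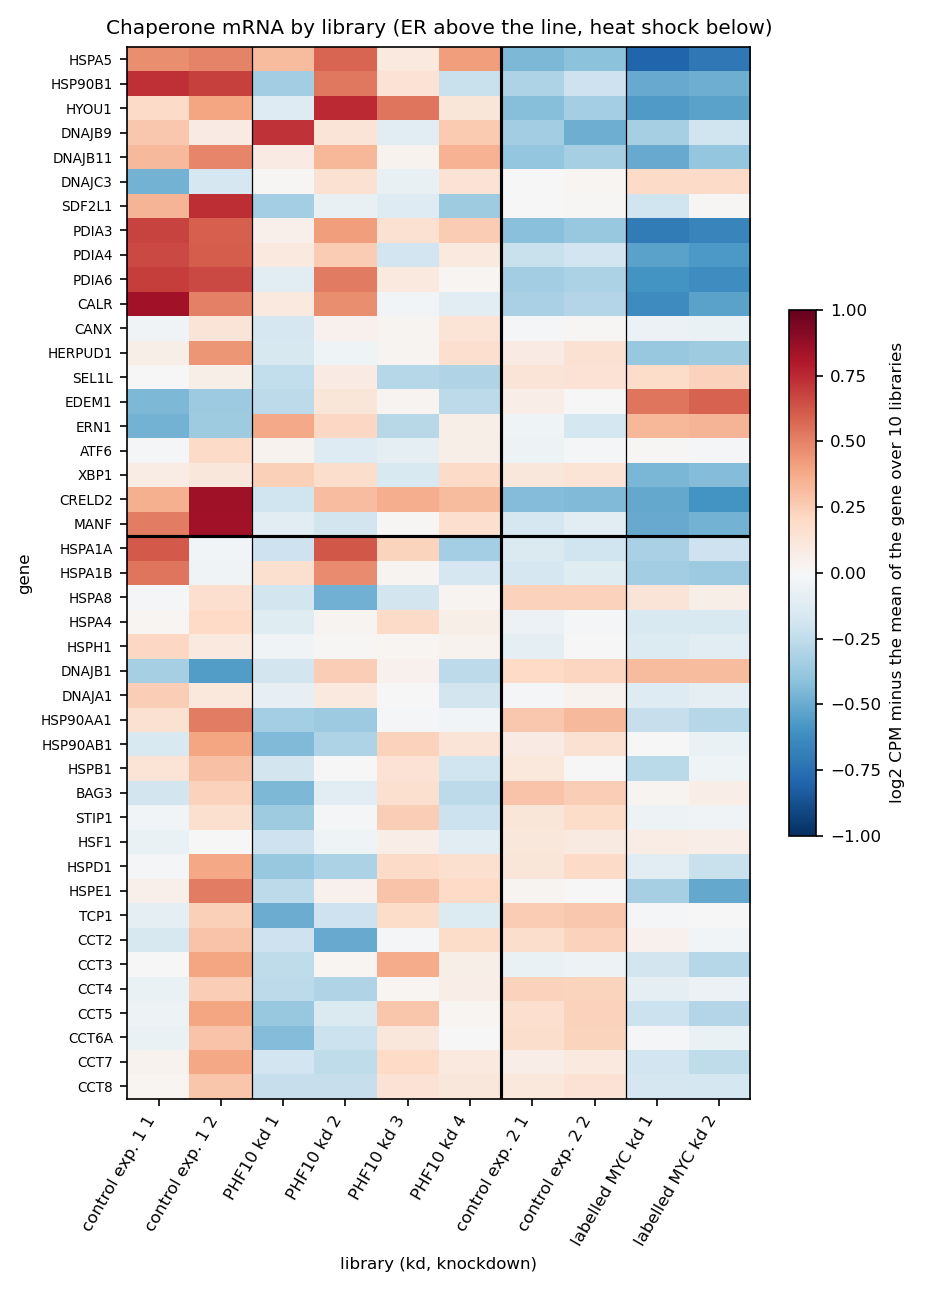
Each row is 1 chaperone gene and each column 1 library; the colour gives log2 CPM minus the mean of that gene over the 10 libraries. Most lumenal ER chaperones are red in the controls of experiment 1 and blue throughout experiment 2, while the CCT subunits differ between replicates of experiment 1.

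PHF10 knockdown was accompanied by lower mRNA of 3 ER folding factors, SDF2L1, MANF and PDIA4, and of no heat shock member past the threshold. SDF2L1 binds the BiP machinery and keeps substrates soluble, MANF is a secreted ER stress protein that binds BiP, and PDIA4 is a disulfide isomerase. These 3 of 20 ER members were lower at an adjusted p under 0.05, against 3.58% of all 18450 genes, and 0 of 20 were higher, against 2.75% (6.34% in either direction). The ER median log2 fold change was −0.20 and 14 of 20 members were under 0, beside a median of 0.02 over all genes, of which 47.9% were under 0. At an unadjusted p under 0.05, 8 ER members were lower and 3 higher, against 11.5% and 11.2% of all genes (22.7% in either direction).

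SDF2L1 (chromosome 22, 21642261 to 21644298 in GRCh38) stood at 12.4, 14.8, 14.3 and 12.2 CPM in the PHF10 knockdown libraries, in replicate order, and at 19.8 and 26.1 CPM in the controls. Every knockdown library lay under both controls. The log2 fold change was −0.77 (SE 0.15, 95% interval −1.10 to −0.44; adjusted p = 0.0161). MANF (chromosome 3, 51385047 to 51389397) measured 90.5, 85.6, 98.0 and 109 CPM against 139 and 174 CPM, again with no overlap. Its log2 fold change was −0.71 (SE 0.13; adjusted p = 0.0139). PDIA4 (chromosome 7, 149003062 to 149028641) measured 292, 326, 239 and 292 CPM against 430 and 414 CPM. All 4 knockdown libraries were lower than either control, and the log2 difference was −0.56 (SE 0.13; adjusted p = 0.0340).

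Control replicate 2 and the number of libraries bore on these calls. Without control replicate 2 none of the 3 genes passed in a fit that called 1.1% of all genes (adjusted p of 0.180 for SDF2L1, 0.143 for MANF and 0.154 for PDIA4), and without PHF10 knockdown replicate 2 the count of ER members was 7, where 6.32% of all genes were called. PDIA4 also missed the threshold without knockdown replicate 4 (0.0544; 6.15% of all genes called) and when control replicate 1 was dropped (0.159; 1.08% called). When experiment 1 was fitted by itself no member passed (0.102, 0.0984 and 0.177), in a fit that called 0.28% of 17849 genes. DESeq2 called 8 ER members, 7 of them lower, and 11.7% of all genes. A fit with no filter on low counts called 6 and 6.01% of all genes, and the replicate numbers as a block left 1, MANF, and 4.71% of all genes. In that block knockdown replicates 3 and 4 had no control of the same number, so only replicates 1 and 2 entered the PHF10 comparison.

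**Figure D2:**
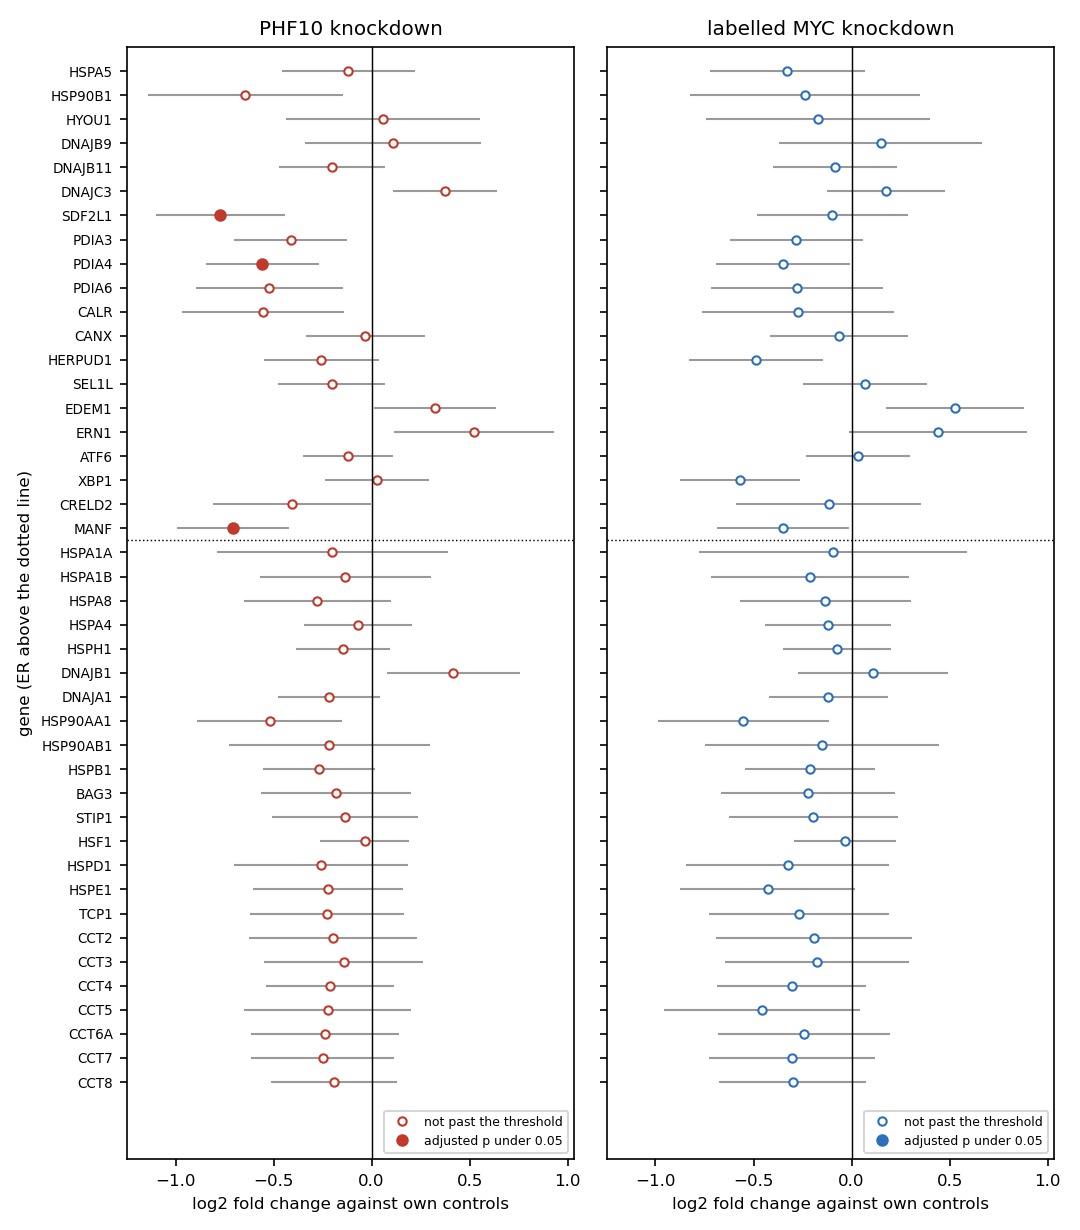
Log2 fold change (points) with 95% interval (lines) of each member in the PHF10 knockdown (left) and the libraries labelled MYC knockdown (right) against their own controls; filled points passed the adjusted threshold. SDF2L1, PDIA4 and MANF are filled on the left at −0.77, −0.56 and −0.71, and no point is filled on the right.

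The other abundant lumenal chaperones did not pass. HSP90B1 measured 771, 1411, 1083 and 839 CPM in the knockdown libraries and 1630 and 1579 CPM in the controls. The 4 knockdown values lay apart from each other but all under the controls, and the log2 fold change was −0.65 (SE 0.22; adjusted p = 0.121). HSPA5, the master chaperone of the ER, measured 1072, 1290, 923 and 1150 CPM against 1192 and 1216 CPM. Knockdown replicate 2 exceeded both controls, and the difference of −0.12 (95% interval −0.46 to 0.22; adjusted p = 0.700) was within the spread. CALR had a log2 fold change of −0.55 (adjusted p = 0.113), and the isomerases PDIA6 and PDIA3 had −0.52 (0.0982) and −0.41 (0.0913). These 3 and HSP90B1 also showed no overlap between the groups. Altogether 7 of 20 ER members were lower and 3 higher without overlap, against 13.7% and 13.4% of all genes (27.2% in either direction). The membrane lectin CANX, sister of calreticulin, stayed within 811 to 1003 CPM in all 6 libraries of experiment 1 (log2 fold change −0.03). The remaining BiP partners DNAJB9, DNAJB11 and HYOU1 had 0.11, −0.20 and 0.06, each overlapping its controls, and the secreted CRELD2 had −0.41 (adjusted p = 0.217).

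No ER member with a positive fold change passed, and 3 of them, ERN1, DNAJC3 and EDEM1, lay above the controls without overlap. ERN1 measured 13.6, 12.1, 8.67 and 10.9 CPM in the knockdown libraries and 7.57 and 8.21 CPM in the controls. The groups did not overlap, and the fit gave 0.52 in log2 (SE 0.18; adjusted p = 0.125), and leaving out knockdown replicate 3, the lowest, gave 0.63 (adjusted p = 0.0388), in a fit that called 6.98% of all genes. DNAJC3, which restrains PERK and assists BiP, had 0.38 (adjusted p = 0.0951), and EDEM1, which marks misfolded glycoproteins for degradation, had 0.32 (0.201). ATF6 measured 116, 103, 106 and 117 CPM against 112 and 129 CPM, and XBP1, whose mRNA is spliced by IRE1, measured 67.7, 64.7, 51.7 and 65.5 CPM against 60.5 and 62.0 CPM. Both overlapped their controls, with log2 fold changes of −0.12 (adjusted p = 0.532) and 0.03 (0.929). HERPUD1 and SEL1L, partners of the degradation ligase, had −0.26 (0.284) and −0.20 (0.366). Gene counts do not separate the spliced from the unspliced XBP1 mRNA.

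Among 23 heat shock members, edgeR called 0 after PHF10 knockdown (6.34% of all genes), limma-voom 0 (5.9%) and DESeq2 1, HSP90AA1 (11.7%). By edgeR 2 had an unadjusted p under 0.05, against 22.7% of all genes. The median log2 fold change was −0.21 and 22 of the 23 were under 0, beside 47.9% of all genes. HSP90AA1, the stress-inducible cytosolic HSP90, measured 877, 864, 1100 and 1089 CPM in the knockdown libraries and 1235 and 1583 CPM in the controls. The groups did not overlap (log2 fold change −0.52, SE 0.16; adjusted p = 0.0956). Without overlap 3 of the 23 members were lower and 1 higher, against 13.7% and 13.4% of all genes. DNAJB1, the J-domain partner of inducible HSP70, was the only member above 0, at 0.42 (adjusted p = 0.137). HSPA8 measured 1686, 1374, 1682 and 1954 CPM against 1904 and 2156 CPM and overlapped (−0.28; adjusted p = 0.366).

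The inducible HSP70 genes showed no difference beyond their spread. HSPA1A measured 20.1, 35.6, 27.0 and 18.3 CPM in the knockdown libraries and 35.4 and 22.7 CPM in the controls. HSPA1B measured 25.1, 31.3, 22.98 and 20.1 CPM against 32.6 and 22.04 CPM. In both genes knockdown replicate 2 and control replicate 1 were the highest libraries, so the groups overlapped (−0.20 and −0.13; adjusted p of 0.710 and 0.740). The coding sequences of these neighbours are nearly identical, and reads that fit both are left out of single-gene counts. HSF1 measured 82.2, 92.1, 99.4 and 88.0 CPM against 90.3 and 95.02 CPM, with a log2 fold change of −0.04 (adjusted p = 0.880). The HSP110 genes HSPA4 and HSPH1, the J-domain protein DNAJA1, the co-chaperones BAG3 and STIP1, the small heat shock protein HSPB1 and the constitutive HSP90 gene HSP90AB1 had −0.27 to −0.07, with HSPH1 and DNAJA1 lower without overlap.

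The chaperonins were close to each other in size of difference. All 8 CCT subunits had log2 fold changes between −0.25 and −0.14, and none passed. TCP1, the first subunit of the ring, measured 203, 248, 324 and 259 CPM in the knockdown libraries and 268 and 337 CPM in the controls. HSPD1, the mitochondrial HSP60, measured 426, 445, 633 and 619 CPM against 546 and 726 CPM. Its lid HSPE1 measured 30.9, 38.2, 45.2 and 42.5 CPM against 38.5 and 53.0 CPM. In all 3 genes the groups overlapped (adjusted p of 0.490, 0.479 and 0.485).

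**Figure D3:**
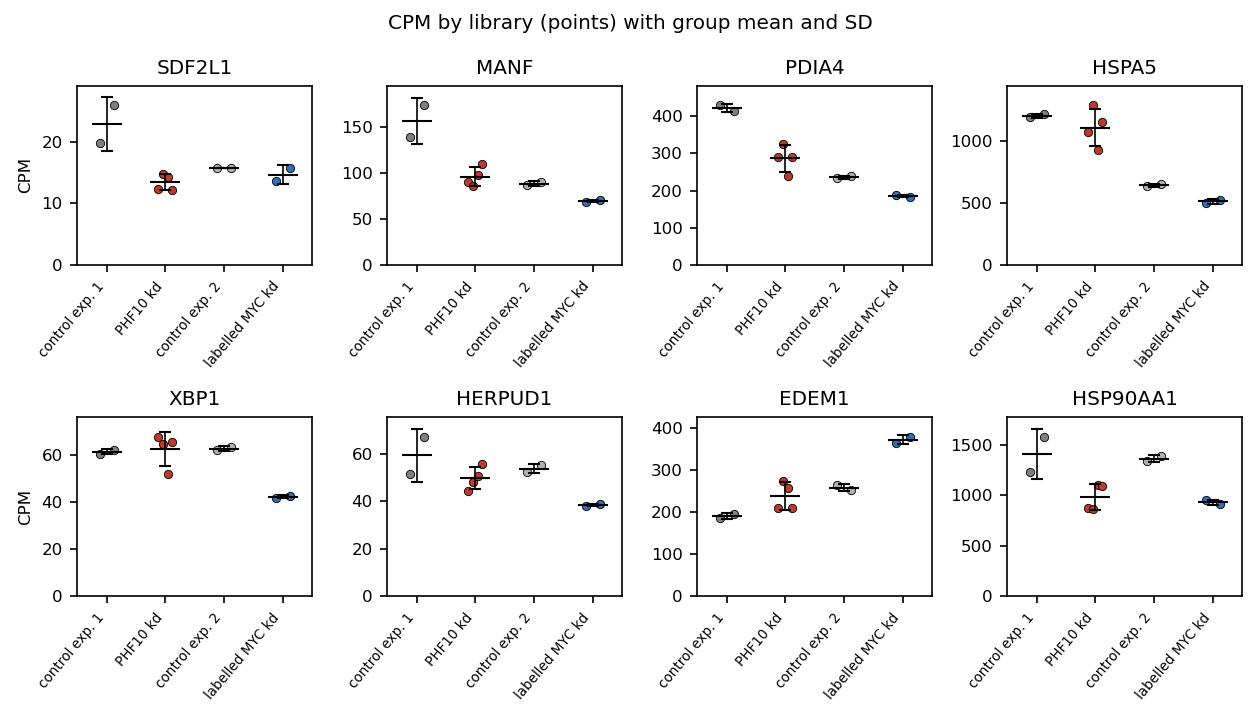
CPM of 8 members by library (points), with the mean and SD of each group (horizontal line and bars); n is 4 for PHF10 knockdown and 2 for the other groups. SDF2L1, MANF and PDIA4 lie lower after PHF10 knockdown, and XBP1 stands at 41.8 and 42.6 CPM with labelled MYC knockdown against 51.7 CPM or more in all others.

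Within experiment 1 many heat shock members differed between libraries with high and with low type I interferon genes. PHF10 knockdown replicates 1 and 2 and control replicate 1 had high interferon genes (mean log2 CPM of 7.45 to 8.08), and the other 3 had low ones (3.79 to 5.02). In 13 of 23 heat shock members, the high libraries lay under the low ones without overlap in both groups, against 16.3% of all genes, and 1 member, HSPA1B, lay above them, against 15.8%. In the controls 1 library stood against 1, so only the direction carried information there. The 13 were all 8 CCT subunits, HSPD1, HSPE1, HSP90AA1, HSP90AB1 and HSPA4. The log2 ratio of high over low libraries was −0.44 to −0.32 for the CCT subunits with PHF10 knockdown and −0.45 to −0.26 in the controls. Of the ER members 3 lay lower in the high libraries (HERPUD1, CRELD2 and MANF) and 2 higher (PDIA4 and CALR). The share of reads assigned to no gene feature on the counted strand was 12.1% to 13.8% in the high libraries and 9.93% to 10.6% in the low ones. Its part in these differences was not tested.

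Each part of this split held libraries of both groups, so the PHF10 comparison was repeated within it. HSP90AA1 had −0.53 within the high part and −0.53 within the low part. Each value compares 2 knockdown libraries with 1 control and is given as a description. With the split as a term in the fit, 3 heat shock members were lower (HSP90AA1, HSPD1 and CCT7), in a fit that called 13.4% of all genes. That fit called 6 ER members, where SDF2L1, PDIA3, PDIA4, CALR and MANF were lower and DNAJC3 was higher.

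**Figure D4:**
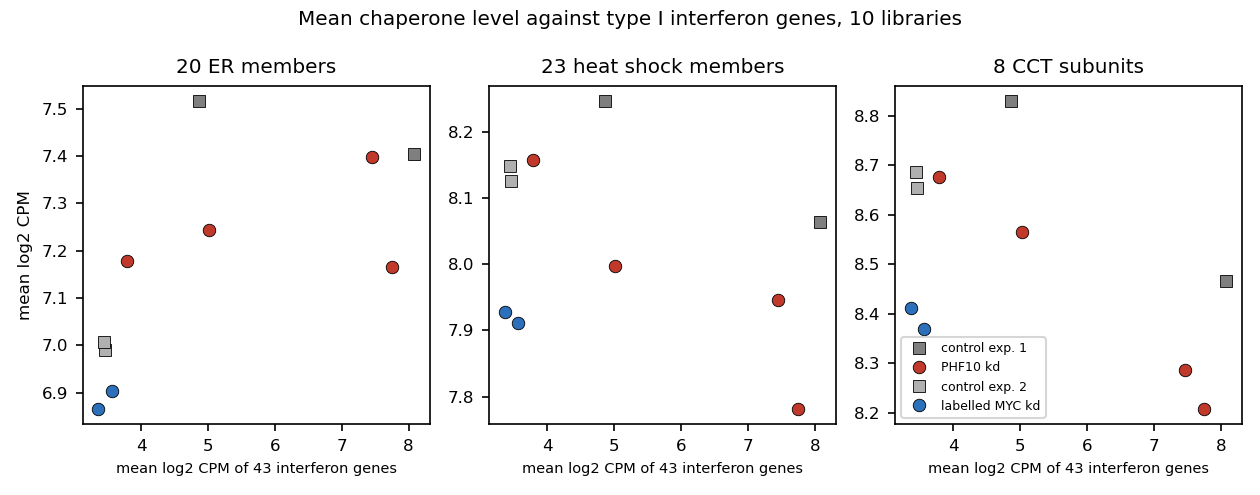
Mean log2 CPM of the 20 ER members, the 23 heat shock members and the 8 CCT subunits (vertical axes, each with its own range) against the mean log2 CPM of 43 type I interferon genes in the 10 libraries. In experiment 1 the CCT mean is 8.21, 8.29 and 8.47 in the high-interferon libraries and 8.56, 8.68 and 8.83 in the other 3.

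In the libraries labelled MYC knockdown, no chaperone passed the threshold, and 22 of 23 heat shock members had a fold change under 0, as did 51.1% of all genes. Of all genes 0.493% passed (0.282% higher, 0.211% lower), and edgeR called 0 of 20 ER and 0 of 23 heat shock members, with 5 (4 lower, 1 higher) and 1 at an unadjusted p under 0.05, against 13.2% of all genes (6.58% lower, 6.62% higher). DESeq2 called 2 ER members, XBP1 and EDEM1, and 3.9% of all genes, and limma-voom called 0 members and 1.14% of all genes. The median log2 fold change was −0.14 for ER and −0.21 for heat shock members, beside −0.01 over all genes. With groups of 2 and little spread, groups did not overlap in 69.7% of all genes. Both labelled libraries lay under both controls in 22 of 23 heat shock members, against 36% of all genes, and DNAJB1 lay above, as 33.6% did. Of the ER members 13 lay lower and 6 higher.

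XBP1 had the smallest p of the members. It measured 41.8 and 42.6 CPM in the labelled libraries and 62.0 and 63.3 CPM in the controls, with a log2 fold change of −0.57 (SE 0.14, 95% interval −0.88 to −0.26; adjusted p = 0.111). ATF6 measured 113.9 and 112.2 CPM against 109.1 and 111.7 CPM and lay barely above them (0.03; adjusted p = 0.944). ERN1 measured 13.2 and 13.3 CPM against 10.2 and 9.31 CPM (0.44; adjusted p = 0.393). EDEM1, a target of XBP1, had 0.53 (adjusted p = 0.175), and HERPUD1 had −0.49 (0.195). These degradation genes had opposite signs and neither passed.

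Of the 7 members of the lumenal HSP70 and HSP90 system, 4 lay lower and 2 higher without overlap in the labelled libraries. Of all genes 36% lay lower and 33.6% higher in this way, and none of the 7 had an unadjusted p under 0.05. The higher ones were the J-domain proteins DNAJC3, at 148.7 and 148.8 CPM against 130.9 and 132.4 CPM, and DNAJB9, at 26.0 and 28.5 CPM against 25.7 and 23.4 CPM. HSPA5 measured 498 and 526 CPM against 633 and 651 CPM (−0.33; adjusted p = 0.476). HSP90B1 measured 691.9 and 697.9 CPM against 792 and 849 CPM (−0.24; adjusted p = 0.776). No labelled library reached a control in either gene. PDIA4 measured 188 and 183 CPM against 234 and 239 CPM (−0.35; adjusted p = 0.365), and MANF measured 68.6 and 70.2 CPM against 86.3 and 90.4 CPM (−0.35; 0.360). SDF2L1 was the only member that overlapped, at 13.6 and 15.8 CPM against 15.73 and 15.74 CPM (−0.10; adjusted p = 0.872).

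Of the heat shock members, HSP90AA1 differed most. It measured 949 and 913 CPM in the labelled libraries and 1341 and 1388 CPM in the controls (−0.55, SE 0.19; adjusted p = 0.255). HSPE1 measured 29.4 and 26.0 CPM against 37.7 and 36.9 CPM (−0.43; adjusted p = 0.399), and HSPD1 measured 513 and 476 CPM against 605 and 635 CPM (−0.33; 0.617). Both genes of the mitochondrial chaperonin lay under their controls without passing. TCP1 measured 283 and 284 CPM against 340 and 344 CPM (−0.27; adjusted p = 0.649), and the 8 CCT subunits had values between −0.46 (CCT5) and −0.18. HSPA8 measured 2097 and 1997 CPM against 2242 and 2250 CPM (−0.13; adjusted p = 0.848). HSF1, at 99.9 and 99.1 CPM against 103 and 101 CPM, had −0.03 (adjusted p = 0.945). HSPA1A measured 18.5 and 20.02 CPM against 20.98 and 20.2 CPM, and HSPA1B 17.7 and 17.5 CPM against 20.1 and 20.7 CPM (−0.10 and −0.21; adjusted p of 0.936 and 0.766).

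These calls depended on whose spread was used. With experiment 2 fitted alone, 13 ER members (3 higher, 10 lower) and 20 heat shock members (1 higher, 19 lower) passed, where 44.5% of 17481 genes passed. In that fit XBP1 had −0.56 (adjusted p = 1.59e-12) and HSP90AA1 had −0.54 (1.87e-16), from 2 libraries a group that may be technical repeats. Leaving out any of the 4 libraries from the shared fit called 0 of all genes tested, so it says nothing about the members.

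The responses to the 2 siRNAs were compared directly, as PHF10 response minus MYC response. The tests of edgeR, DESeq2 and limma-voom each called 0 members, and called 0.385% (0.26% higher, 0.125% lower), 3.43% and 0.314% of all genes. By edgeR 2 ER and 0 heat shock members had an unadjusted p under 0.05, against 11.7% of all genes. SDF2L1 had a difference of −0.67 in log2 fold change (SE 0.23, 95% interval −1.18 to −0.16; adjusted p = 0.261), lower after PHF10 knockdown. XBP1 had 0.59 (SE 0.18, interval 0.19 to 1.00; adjusted p = 0.215), lower in the libraries labelled MYC knockdown. MANF had −0.36 (interval −0.80 to 0.08) and PDIA4 −0.21 (−0.66 to 0.24). Among the CCT subunits the interval of CCT5 was −0.43 to 0.89 and that of CCT2 was −0.66 to 0.66.

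The largest differences of ER chaperones lay between the controls. In the controls of experiment 2, 9 of 20 ER members were lower than in the controls of experiment 1, against 6.6% of all genes, and 0 were higher, against 8.05% (14.6% in either direction). Without overlap 13 were lower and 4 higher, against 33.5% and 34.5% of all genes (68% in either direction). The ER median log2 fold change was −0.64, beside −0.02 over all genes. The 9 were the lumenal chaperones HSPA5, HSP90B1 and DNAJB11, the isomerases PDIA3, PDIA4 and PDIA6, the lectin CALR and the secreted CRELD2 and MANF. Experiment and any batch cannot be told apart here, and all 43 interferon genes had a negative fold change in the controls of experiment 2, of which 2 passed.

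HSPA5 measured 1204 ± 17.2 CPM (SD, n = 2) in the controls of experiment 1 and 642 ± 12.4 CPM in those of experiment 2 (log2 fold change −0.91, SE 0.18; adjusted p = 0.0105). PDIA3 measured 691 ± 26.8 and 337 ± 6.05 CPM (−1.04, SE 0.15; adjusted p = 0.00280), and CALR 2187 ± 360 and 1104 ± 16.3 CPM (−0.99, SE 0.22; 0.0184). In all 3 genes the controls did not overlap. The other 6 had log2 fold changes of −1.06 (CRELD2), −1.01 (PDIA6), −0.97 (HSP90B1), −0.84 (PDIA4), −0.82 (MANF) and −0.77 (DNAJB11). The regulators differed less, with 0.31 for ERN1, −0.12 for ATF6 and 0.03 for XBP1, none past the threshold, and CANX had −0.05. SDF2L1, HYOU1 and DNAJB9 had −0.54, −0.68 and −0.59 (adjusted p of 0.0623, 0.106 and 0.120). With control replicate 1 or 2 of experiment 2 left out only PDIA3 passed among ER members, where 2.86% and 3.04% of all genes were called. Without control replicate 1 or 2 of experiment 1 the counts were 6 and 5, where 4.87% and 6.9% of all genes were called.

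The heat shock members did not share this difference. Their median was −0.03, and 1 of 23 passed, DNAJB1 at 0.65 (SE 0.17; adjusted p = 0.0343), which was 107.5 ± 12.1 CPM (SD, n = 2) in the controls of experiment 1 and 168 ± 1.26 CPM in those of experiment 2. It missed the threshold when any 1 control was left out (adjusted p of 0.0852 to 0.168). HSP90AA1 and HSP90AB1 had −0.05 and −0.03, and the CCT subunits −0.27 to 0.18. HSPA1A and HSPA1B had −0.49 and −0.42 (adjusted p of 0.312 and 0.244).

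**Figure D5:**
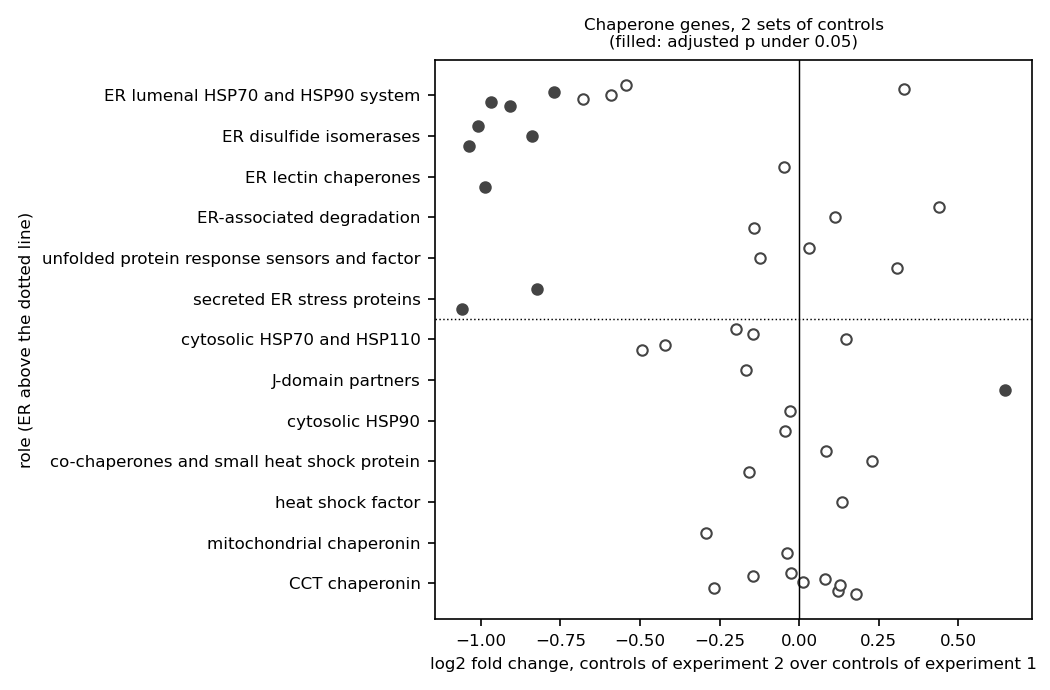
Log2 fold change of each member between the controls of experiment 2 and those of experiment 1 (horizontal axis), grouped by role; vertical offsets within a role only separate the points. The 9 filled ER points lie between −1.06 and −0.77, and the filled heat shock point is DNAJB1 at 0.65.

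Further genes of the same pathways were read from lists that hold none of the 43. After PHF10 knockdown, 1 of 38 other ER folding enzymes was higher and 0 lower, beside 2.75% and 3.58% of all genes, SDF2 at 0.49 (adjusted p = 0.0232), and the median of the list was −0.05. SDF2 is the paralogue of SDF2L1, which was lower in the same libraries. Among 28 other ER-associated degradation genes NGLY1, which removes glycans from misfolded proteins, was higher at 0.38 (0.0411) and 6 of the 28 had a fold change under 0, beside 47.9% of all genes. Of 28 other unfolded protein response genes, 0 passed by edgeR, with 4 at an unadjusted p under 0.05, against 22.7% of all genes. Of 39 other cytosolic chaperone genes 2 were lower and 0 higher, beside 3.58% and 2.75% of all genes. The 2 were the HSP70 co-chaperone BAG4 (−0.60; 0.0105) and the histone chaperone DNAJC9 (−0.54; 0.0423). At an unadjusted p under 0.05, 9 of the 39 were lower and 3 higher, against 11.5% and 11.2% of all genes. In 13 prefoldin and CCT helper genes and 14 other mitochondrial chaperones and proteases 0 passed. At an unadjusted p under 0.05 stood 1 and 0 of them, against 22.7% of all genes.

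In the libraries labelled MYC knockdown 0 genes of these 6 lists passed by edgeR, with 5 of 38, 3 of 28, 3 of 28, 3 of 39, 0 of 13 and 0 of 14 at an unadjusted p under 0.05, beside 13.2% of all genes. The smallest p was that of TRIB3, a pseudokinase induced by ER and amino acid stress, at −0.53 (adjusted p = 0.0661). Between the controls 13 of the 38 other ER folding enzymes were lower in experiment 2 and 0 higher, beside 6.6% and 8.05% of all genes, with a median of −0.44. They were led by the prolyl isomerase PPIB (−1.18; adjusted p = 0.00117), the BiP exchange factor SIL1 (−1.32; 0.00209) and the peroxiredoxin PRDX4 (−0.92; 0.00271).

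Markers of cell state also differed between groups. The summed level of 15 melanocyte lineage markers was 1539 to 2092 CPM after PHF10 knockdown and 2510 to 2511 CPM in the controls, 2030 to 2043 CPM in the controls of experiment 2 and 1926 to 1971 CPM in the labelled libraries. Of the 13 tested, 2 fell after PHF10 knockdown, beside 3.58% of all genes, S100B at −1.11 (adjusted p = 0.00924) and ERBB3 at −0.76 (0.0211). In the libraries labelled MYC knockdown 1 fell, beside 0.211%, NGFR at −1.99 (0.0290), and 7 of the 13 had a positive fold change. Between the controls 5 of the 13 were lower in experiment 2 and 1 higher, beside 6.6% and 8.05% of all genes. In that comparison epithelial markers had 1 lower and 2 higher of 5, and fibroblast markers 2 lower of 6. Endothelial markers had 1 higher of 4, and immune markers 0 of 2. Of 6 fibroblast markers COL3A1 rose after PHF10 knockdown (3.16; adjusted p = 0.0141), beside 2.75% of all genes, at 1.52 to 3.73 CPM against 0.17 and 0.42 CPM. The list summed to 41.4 to 78.3 CPM after PHF10 knockdown and 42.4 to 64.6 CPM in the controls, and to 20.3 to 24.1 and 21.2 CPM in experiment 2. In experiment 2 immune markers summed to 2.35 to 6.78 CPM. LYZ made up most of them in all libraries, with PTPRC at or under 0.13 CPM and MS4A1 at 0. Epithelial markers summed to 27.0 to 49.8 CPM after PHF10 knockdown and 22.51 to 24.4 CPM in its controls. They summed to 12.6 to 14.5 CPM with labelled MYC knockdown and 31.7 to 33.7 CPM in its controls. With labelled MYC knockdown KRT14 fell (−1.77; adjusted p = 0.0343), 1 of 5 tested, beside 0.211% of all genes. CDH1 was at or under 0.081 CPM everywhere. Immune marker sums were 13.5 to 31.3 CPM after PHF10 knockdown and 12.7 to 13.5 CPM in its controls, and endothelial sums were 8.96 to 204 CPM and 46.8 to 61.3 CPM, mostly KDR, with CLDN5 at 0 in all libraries. The part of these markers in the chaperone differences was not tested.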

How the data were processed

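The 10 libraries were poly(A)-selected and sequenced as single reads of 100 nt with a directional kit, per the labels' protocols. Reads were trimmed with cutadapt and aligned with STAR, and the build was GRCh38.p13, also written hg38. These names are per the submitters' processing notes. The sources used here give neither versions nor the annotation. The authors deposited raw counts per gene in 3 columns, and the opposite-strand column was used, since the same-strand column held 5.27% to 5.55% of stranded gene reads. Summary lines (19.1% to 23.6% of reads), among them reads at several places (4.98% to 6.36%), stayed out of library sizes. HSPE1 shares exons with the readthrough HSPE1-MOB4 on its strand, so reads that lie in both may be missing from its count.

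Counts of all 10 libraries were fitted as 4 group means with edgeR 4.0.16 (R 4.3.3; quasi-likelihood, robust, TMM, filterByExpr; 18450 genes), with Benjamini-Hochberg adjustment over all genes and a threshold of 0.05; every adjusted p is from this fit unless another is named. Log2 values use a prior count of 2. Members and lists were chosen with earlier results of these data known. Values in every library are given for members past the threshold after either knockdown and for a set chosen by role. Those of DNAJC3 and DNAJB9 in experiment 2 are given besides, because both lay above their controls. Lists name up to 3 genes with the smallest p, and other lists' genes named beside them were chosen after their values were seen. The script was tested on simulated data. Alternatives were DESeq2 1.42.0, limma-voom (limma 3.58.1), RLE and upper-quartile factors, no or a stricter filter (1 CPM in 4 libraries), the unstranded column, single experiments, a replicate block, the interferon split and leaving out each library. The fits within each interferon part and the crossed block were chosen after seeing the data. Exon lengths came from GENCODE 29 and promoters from RefSeq (GRCh38.p14).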

Additional observations from a re-analysis of the deposited data

Results flagged for a closer look

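In the 4 PHF10 knockdown libraries, each of the 43 members was checked for a library far from the other 3, and 2 were found. Chance alone sets apart about 1 in 20 such groups. SEL1L, the adaptor of the ER degradation ligase, stood at 93.6 CPM in replicate 2 and at 71.9 to 74.3 CPM in the other 3. CRELD2, a secreted ER stress protein, stood at 23.9 CPM in replicate 1 and at 34.1 to 35.5 CPM in the other 3.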

How the results depend on the processing

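The log2 fold changes of single members, 83 in all, were compared with 1305 alternative values: 1173 kept direction and side of the threshold, 45 lost it, 57 gained it and 30 changed sign, and 0 of the 13 called values changed sign. Counts are of 20 ER and 23 heat shock members. After PHF10 knockdown the ER count of 3 became 8 with DESeq2, 6 with no filter, 0 with experiment 1 alone, 6 with the interferon split as a term, 1 and 6 within its high and low parts (1 control each, with the spread borrowed largely from experiment 2), and 0 to 7 when single libraries were left out. The heat shock count of 0 became 1 with DESeq2, 1 with no filter, 3 with the split as a term and 1 within each part. With labelled MYC knockdown the counts of 0 became 13 and 20 with experiment 2 alone, 2 ER members with DESeq2, and 1 and 1 with the split. Between controls the heat shock count of 1 became 0 with upper-quartile factors and 4 with the split, and 0 without any single control; the ER count of 9 ran from 1 to 6 without single controls. The causes were not tested.

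The replicate number as a block left 1 ER member after PHF10 knockdown, MANF, and 5 ER and 0 heat shock members between controls. Knockdown replicates 3 and 4 have no control of the same number, so the block took them out of the PHF10 comparison. Deviations of same-numbered libraries correlated at 0.484, −0.297 and −0.0309, so the numbers are not shown to pair the libraries. The crossed block in experiment 2, tried after seeing the data, called 0 of 18450 genes and so says nothing about the members.

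Signs changed only in members that did not pass. After PHF10 knockdown XBP1 was −0.0813 within the low part and −0.0145 to 0.107 when single libraries were left out. HSPA1A was 0.00115 within the low part and −0.49 to 0.147 without single libraries. HSPA1B was 0.0659 with the block and −0.393 to 0.167 without single libraries, and HSF1 was 0.00929 with upper-quartile factors and −0.0826 to 0.00852. HSP90AB1 ran from −0.47 to 0.0792 and HSPE1 from −0.443 to 0.0248. CANX was 0.0128 with upper-quartile factors and −0.12 to 0.0493 without single libraries, HYOU1 was −0.0548 within the low part and −0.0947 to 0.192, and DNAJB9 ran from −0.0717 to 0.221. Between controls XBP1 was −0.0843 with upper-quartile factors and −0.00241 with the stricter filter. CANX was 0.0481 with the block and −0.119 to 0.0513 without single controls, and HSP90AA1 was 0.0486 and −0.205 to 0.158. HSP90AB1 was 0.011 with no filter, 0.162 with the block and −0.268 to 0.282 without single controls. With labelled MYC knockdown SDF2L1 ran from −0.213 to 0.00184. With 2 controls in each experiment and 6 residual degrees of freedom, small differences were not detectable.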
